A study of Canis lupus familiaris with 32 samples.

Results

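The genes examined here are those by which osteoblasts, the cells that build bone, are usually recognized. Of the 8 symbols sought among the annotated probes, 4 had at least 1 probe. SPP1 and ALPL had 1 probe each, COL1A2 had 3 and SPARC had 5, which gave 10 probes of 22176 on the array and 4 genes of the 5246 with a symbol. COL1A1, IBSP, BGLAP and RUNX2 were not analysed here, because no probe carries their symbol.

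Osteoblasts lay down a matrix of type I collagen and then deposit mineral in it. COL1A2 encodes a chain of type I collagen, and SPARC (osteonectin) is a secreted protein that binds collagen and calcium. ALPL, the tissue-nonspecific alkaline phosphatase, sits on the osteoblast surface and removes pyrophosphate, an inhibitor of mineral formation. SPP1 (osteopontin) is a secreted phosphoprotein that binds mineral and integrins, and besides osteoblasts it is made by osteoclasts and macrophages. Osteosarcoma (OS) is defined by tumor cells that produce osteoid, and pathologists type it by the tissue it forms.

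Primary tumors were taken at surgery from 32 pet dogs that had received no treatment before. The 16 short survivors (SS) lived less than 6 months and the 16 long survivors (LS) lived 6 months or longer. Each tumor was hybridized once on a 2-color cDNA array against a pool of RNA from all 32 tumors, and the values are log2 ratios of tumor over pool. Tumor RNA carried Cy5 on 16 arrays and Cy3 on 16, with 8 of each in each survival group.

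Histological type and site come from the clinical table of the study, matched by tumor number. Of the 32 tumors 29 had an osteoblastic (OB) component and 8 were OB alone, 16 had a fibroblastic (FB) component, 8 a chondroblastic (CB) component and 4 a telangiectatic (TL) component. A tumor could have several components. The forelimb held 15 tumors, the scapula 2, the hindlimb 9 and the rib or mandible 5, and 1 tumor was extraskeletal. The tissue was not sorted, so fewer cells of a type and less RNA per cell cannot be told apart. Each dog gave 1 tumor and 1 array, and the number of arrays limits the precision.

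The dye mattered on this platform. The mean ratio of a probe with the tumor in Cy5 and that with the tumor in Cy3 correlated at -0.658, and 14202 probes (64.0%) differed between these label orientations at a false discovery rate of 10%. Within an orientation no pair of arrays correlated below 0.00256. Dye strength, the slope of an array on the mean Cy5 to Cy3 difference with 1 as the average, was 0.764 in SS tumors and 1.16 in LS tumors on Cy5 arrays, and 0.893 and 1.18 on Cy3 arrays. A single tumor's ratio therefore also carries the dye, and 0 does not by itself mean the level of the pool. For survival the counts of probes called are also given with the dye as a block. The differences of the 4 genes are also given within each orientation.

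All 4 genes were among the most variable on the array. After each probe was centered on the mean of its orientation, SPP1 had a standard deviation of 1.84 across the tumors, the 3 COL1A2 probes 1.16, 1.42 and 1.64, ALPL 1.52 and the 5 SPARC probes between 1.02 and 1.26. The median probe had 0.278. These values placed the 10 probes between the 95.7th and 98.5th percentile of all probes. For COL1A2 and SPARC the most variable probe, 21293 and 3034, is used below wherever a single value is given.

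SPP1 had the widest spread. Its ratio was -4.69 in the lowest tumor, -0.47 at the median and 2.14 in the highest. ALPL reached -3.86 in the lowest tumor, -0.23 at the median and 1.78 in the highest. Both of these lowest ratios belonged to tumor 29, an OB tumor of the distal radius from a long survivor, whose 3 COL1A2 probes averaged 0.23 and whose 5 SPARC probes averaged 0.63. After centering within the orientation tumor 29 was still the lowest for ALPL, at -2.96, but for SPP1 tumor 22 was lower, at -3.63 against -3.44.

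COL1A2 was at -5.43 in the lowest tumor, 0.06 at the median and 2.35 in the highest, and SPARC was at -3.47, -0.12 and 1.86. The lowest tumor was number 22 at all 8 probes of the genes. The highest was number 28 at these 2 probes, but number 6 at the other 4 SPARC probes and number 7 at the other 2 COL1A2 probes. Tumor 28, the one tumor typed FB alone, lay in the metatarsus and also had the highest ALPL and an SPP1 ratio of 1.80.

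Tumors 4, 13 and 22 were below -1 at all 8 probes of COL1A2 and SPARC. They differed in the other genes. Tumor 22, an OB/TL tumor of the rib, had SPP1 at -3.88 and ALPL at -2.48, so that all 4 genes were low. Tumor 4, an OB/FB tumor of the distal radius, had ALPL at -3.43 but SPP1 at 2.12, the second highest of the 32 and the highest after centering within the orientation (3.37). Tumor 13, an OB tumor of the distal tibia and fibula, had SPP1 at -3.29 but ALPL at 1.03, and its array had the lowest dye strength of all, 0.274. Tumor 10, typed CB alone, was low at SPARC (mean of 5 probes -1.91) and not at COL1A2 (mean of 3 probes -0.04).

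**Figure D1:**
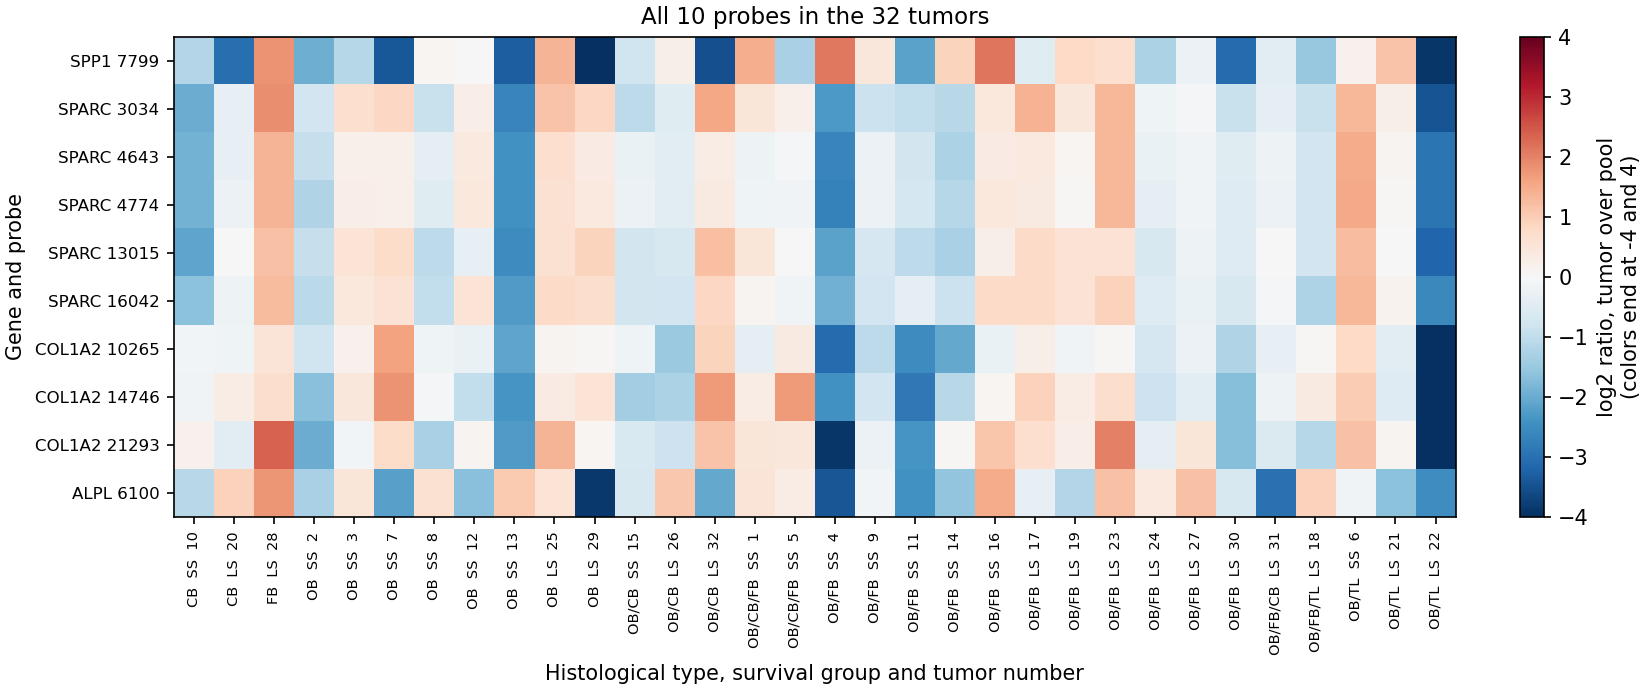
Log2 ratio of tumor over pool (color scale) for the 10 probes (rows) in the 32 tumors (columns), ordered by histological type, with survival group and tumor number under each column. Tumors 4, 13 and 22 are blue at all 8 COL1A2 and SPARC probes, while SPP1 and ALPL differ among those 3.

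Probes of a gene gave nearly the same pattern. The 10 pairs of SPARC probes correlated between 0.946 and 0.998 across the 32 tumors after centering, and the 3 pairs of COL1A2 probes between 0.904 and 0.957. The 15 pairs of 1 SPARC and 1 COL1A2 probe correlated between 0.746 and 0.898. Probes of a gene share an array and a transcript and are no independent replicates.

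Between genes, 6 pairs were tested within each orientation, 12 correlations in all, with permutation p-values of 100000 resamples adjusted over the 12. COL1A2 and SPARC went together in both. On the 16 Cy5 arrays their Pearson correlation was 0.95 (permutation p = 1e-05, the smallest possible, adjusted p = 6e-05) and Spearman's rho was 0.92 (permutation p = 1e-05, adjusted p = 0.00012). On the 16 Cy3 arrays r was 0.87 (permutation p = 2e-05, adjusted p = 8e-05) and rho 0.80 (permutation p = 0.00034, adjusted p = 0.00204). Without the 2 tumors farthest from the SPARC median r was 0.91 on Cy5 arrays and 0.76 on Cy3 arrays.

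SPP1 followed the matrix genes on one set of arrays and not on the other. Among tumors labeled with Cy3, SPP1 and COL1A2 correlated at 0.87 (permutation p = 1e-05, adjusted p = 6e-05, rho = 0.76 with permutation p = 0.00104 and adjusted p = 0.00345). There SPP1 and SPARC correlated at 0.84 (permutation p = 8e-05, adjusted p = 0.00024, rho = 0.75 with permutation p = 0.00115 and adjusted p = 0.00345). Among tumors labeled with Cy5 the same pairs had r of -0.26 (permutation p = 0.328, adjusted p = 0.438, rho = -0.10) and -0.30 (permutation p = 0.26, adjusted p = 0.389, rho = -0.27). Leaving out tumors 13 and 22 gave 0.75 and 0.66 on Cy3 arrays. Leaving out tumors 4 and 29 gave 0.15 and 0.07 on Cy5 arrays, where the negative sign thus rested on those tumors. The difference between the orientations was not tested, and each holds other tumors.

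On Cy3 arrays ALPL correlated less with COL1A2 and SPARC than SPP1 did. The correlations of ALPL with the other genes were lower still on Cy5 arrays. Its correlation with COL1A2 was 0.59 on Cy3 arrays (permutation p = 0.0112, adjusted p = 0.0268, rho = 0.59 with permutation p = 0.0178 and adjusted p = 0.0426) and 0.20 on Cy5 arrays (permutation p = 0.462, adjusted p = 0.55, rho = 0.01 with permutation p = 0.978 and adjusted p = 0.978). Without tumors 11 and 22, the farthest from the COL1A2 median, the Cy3 value was 0.29. Tumor 13 stayed in, with COL1A2 at -2.27 against -2.36 in tumor 11, and ALPL at 1.03 against -2.41. The value thus depended on which low tumors were left out, and other choices were not run. With SPARC the correlation of ALPL was 0.52 on Cy3 arrays (permutation p = 0.0387, adjusted p = 0.0774, rho = 0.56 with permutation p = 0.0258 and adjusted p = 0.0517) and 0.06 on Cy5 arrays (permutation p = 0.834, adjusted p = 0.834, rho = -0.15). ALPL and SPP1 correlated at 0.43 on Cy3 arrays (permutation p = 0.0938, adjusted p = 0.161, rho = 0.49) and at 0.18 on Cy5 arrays (permutation p = 0.504, adjusted p = 0.55, rho = 0.18). Without tumors 13 and 22 the Cy3 values of ALPL were higher, 0.60 with SPARC and 0.51 with SPP1. On Cy5 arrays they were -0.20 with SPARC without tumors 4 and 8, and 0.25 with SPP1 without tumors 4 and 29.

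**Figure D2:**
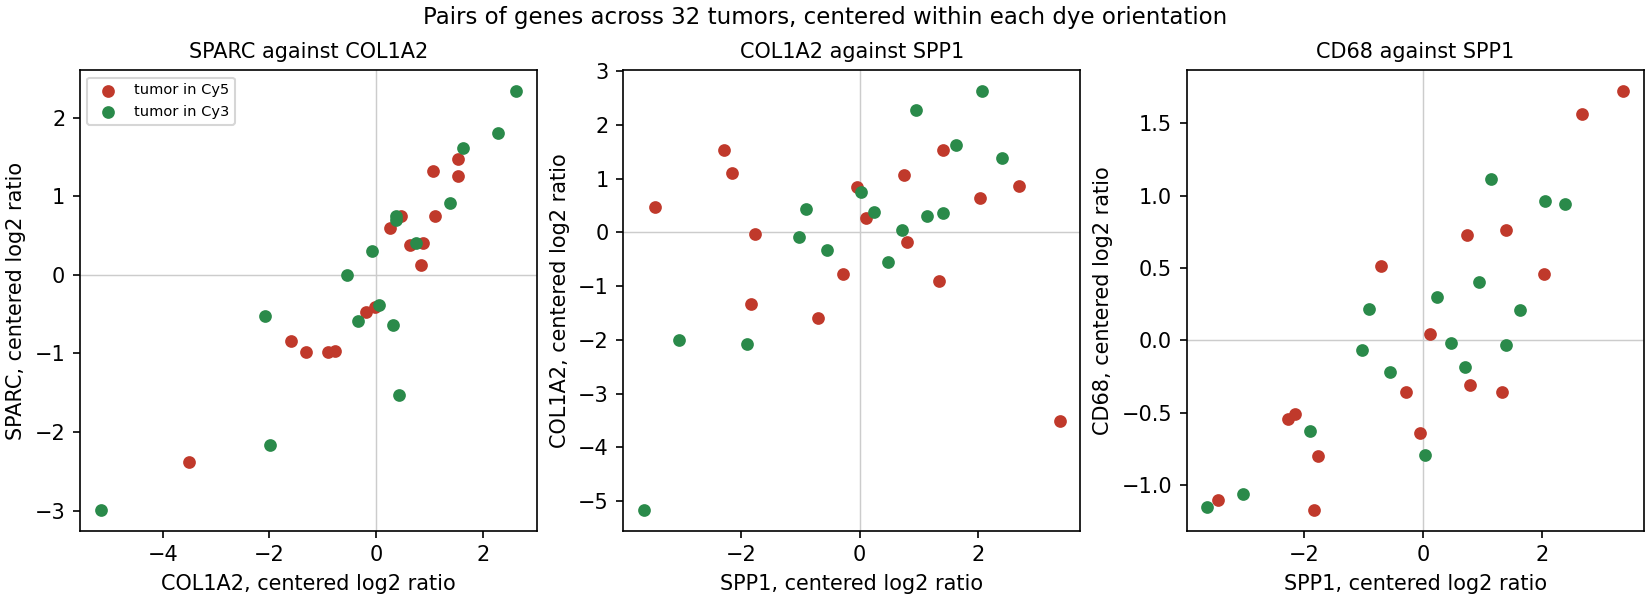
Each point is 1 of 32 tumors, red where the tumor carried Cy5 and green where it carried Cy3, and both axes are log2 ratios centered within the orientation. SPARC rises with COL1A2 (r = 0.95 on Cy5 and 0.87 on Cy3 arrays), COL1A2 rises with SPP1 on Cy3 arrays (r = 0.87) and not on Cy5 arrays (r = -0.26), and CD68 rises with SPP1 in both (r = 0.83 and 0.82).

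The genes of most similar pattern were taken from all named probes by Pearson's r over the 32 arrays after centering, as a description that carries no p-value, since all points share arrays and dye. SPP1 was most like CD68, a lysosomal glycoprotein of macrophages and osteoclasts, with r = 0.83 over the 32 arrays, 0.83 on Cy5 arrays and 0.82 on Cy3 arrays. It was followed by TXN (thioredoxin, r = 0.75), ATP6V1B2 and ATP6V0C, both subunits of the proton pump that acidifies lysosomes (r = 0.73 and 0.70), and GLIPR1 (r = 0.70). The second TXN probe had r = 0.75, whereas the other 3 ATP6V1B2 probes ranged from 0.06 to 0.71.

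COL1A2 was most like a KLHL20 probe (r = 0.92), followed by BGN, the matrix proteoglycan biglycan (r = 0.85), COL5A1, a chain of the type V collagen that joins type I fibrils (r = 0.84), RNF25 (r = 0.84) and VPS72 (r = 0.84). SPARC was most like a VPS72 probe (r = 0.95), followed by SEC31A, part of the vesicle coat that carries cargo out of the endoplasmic reticulum (r = 0.85), PLEKHG3 (r = 0.84), KLHL20 (r = 0.84) and BAG2 (r = 0.83). The other VPS72 probe had r = -0.20 with SPARC, and the other KLHL20 probe had r = -0.10 with SPARC and -0.09 with COL1A2. The probes of VPS72 and of KLHL20 thus disagreed with each other, unlike those of the bone genes.

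ALPL was most like CPE, a carboxypeptidase that processes secreted peptides, with r = 0.84, and the second CPE probe had 0.82. LAMB2, a basement membrane laminin chain, had r = 0.79, the receptor KDELR2 that returns proteins to the endoplasmic reticulum 0.78, the cargo receptor LMAN1 0.76 and the ephrin receptor EPHA3 0.74. None of the 5 genes closest to ALPL was among the 5 closest to SPP1, SPARC or COL1A2. The same held for the 5 closest to SPP1. Lists of 5 out of 5246 genes with a symbol can easily share none, and the overlap was not tested.

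Lists of genes of known roles were set against the 4 genes in the same way. Of 7 leukocyte marker probes 5 had r above 0.5 with SPP1 (median 0.55), and so did 4 of 8 osteoclast marker probes (median 0.47), while 1.06% of all probes did (median 0.02). The highest were CD68, ATP6V0D2 (an osteoclast proton pump subunit, r = 0.66), the collagen-cleaving protease CTSK (0.62), TCIRG1 (0.60), TYROBP (0.57) and CSF1R, the receptor of the macrophage growth factor (0.56). Over both orientations together the 25 bone matrix probes had a median r of 0.05 with SPP1, and 0 of 25 were above 0.5. The orientations differed, however. COL5A1 had r of -0.25 on Cy5 and 0.80 on Cy3 arrays, BGN -0.12 and 0.78, and COL3A1 probe 11117 -0.46 and 0.65. PHEX went the other way, with 0.72 and 0.04.

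SPARC and COL1A2 had another profile. With SPARC 14 of 25 bone matrix probes had r above 0.5 (median 0.60, against 3.38% of all probes), led by COL5A1, BGN and FN1 (fibronectin, r = 0.72). With COL1A2 12 of 25 did (median 0.50), as did 7 of 11 collagen processing probes (median 0.62, against 2.62% of all probes), led by PCOLCE, which enhances procollagen cleavage (r = 0.77), and SERPINH1, the collagen chaperone (r = 0.68). The leukocyte markers had medians of 0.04 with SPARC and 0.02 with COL1A2 over both orientations together, but the orientations differed. CD68 had r of -0.20 on Cy5 and 0.75 on Cy3 arrays with COL1A2, and -0.11 and 0.63 with SPARC. CSF1R had -0.39 and 0.65 with COL1A2, and -0.28 and 0.55 with SPARC. CD14 probe 512 was below 0 with both genes in both orientations. All 4 fibroblast marker probes, of COL3A1 and DCN, which also stand in the bone matrix list, had r above 0.5 with SPARC, and 2 of 4 with COL1A2.

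With ALPL the collagen processing probes had a median r of 0.41 (3 of 11 above 0.5, against 1.49% of all probes), the bone matrix probes 0.03 and the leukocyte markers -0.37. Of 13 osteoblast regulator probes 3 were above 0.5, all of FGFR2, a fibroblast growth factor receptor of bone progenitors (r between 0.56 and 0.68). The median of that list with ALPL was -0.007, and its lowest was a probe of TGFBR2, a TGF-beta receptor, at -0.44. The osteoblast regulators had medians of 0.05 with SPP1, 0.19 with SPARC and 0.22 with COL1A2. The osteoclast markers had medians of 0.22 with SPARC, 0.31 with COL1A2 and 0.32 with ALPL, and the fibroblast markers -0.03 with SPP1 and -0.06 with ALPL. These medians join both orientations, which differed at some probes: COL3A1 probe 11117 had r of -0.35 on Cy5 and 0.60 on Cy3 arrays with ALPL. Medians for cartilage, muscle and endothelium markers lay between -0.33 and 0.48 across the 4 genes. What share of each tumor was macrophage, osteoclast or muscle was not measured, and its part in these patterns was not tested.

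**Figure D3:**
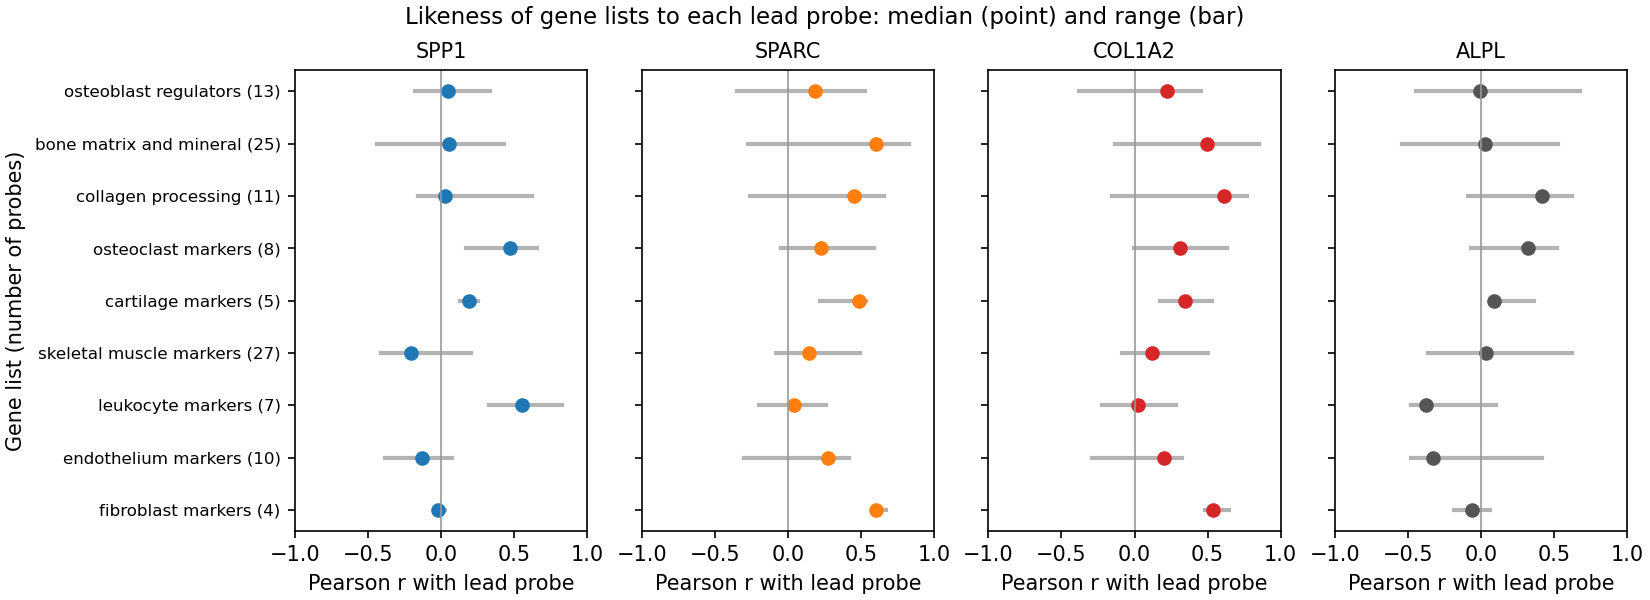
Pearson's r of list probes with the most variable probe of SPP1, SPARC, COL1A2 and ALPL over 32 arrays after centering, with a point at the list's median and a bar from its lowest to its highest probe. Leukocyte and osteoclast markers have medians of 0.55 and 0.47 with SPP1, and the bone matrix list has 0.60 with SPARC and 0.50 with COL1A2.

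The main comparison asked whether the genes differed between SS and LS. Limma called 0 of 10 probes at a false discovery rate of 0.10 (Benjamini-Hochberg, all probes tested), and 0% of all probes. At an unadjusted p of 0.05 it was 0 of 10 probes, against 7.13% of all probes. A rank-sum test also called 0 of 10, but the share of all probes it called was not counted.

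SPARC ranged from -2.64 over a median of -0.81 to 1.33 in SS tumors, and from -3.47 over a median of 0.08 to 1.86 in LS tumors. It averaged -0.53 ± 1.18 in SS and 0.13 ± 1.31 in LS (SD, n = 16 each). The difference of -0.66 (SE 0.43, 95% confidence interval -1.52 to 0.21, limma adjusted p = 0.784) was smaller than the spread within either group. All 5 SPARC probes differed in the same direction, by -0.42 to -0.66.

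SPP1 ranged from -3.40 over a median of -0.41 to 2.14 in SS tumors, and from -4.69 over a median of -0.47 to 1.80 in LS tumors, with means of -0.49 ± 1.71 and -1.01 ± 2.06 (SD, n = 16 each). The difference was 0.51 (SE 0.65, interval -0.80 to 1.83, limma adjusted p = 0.888). COL1A2 averaged -0.53 ± 1.44 in SS and -0.12 ± 1.79 in LS tumors and differed by -0.41 (interval -1.54 to 0.72, limma adjusted p = 0.895). Its other probes went the same way with means closer together. Probe 10265 averaged -0.63 in SS and -0.44 in LS tumors, and probe 14746 -0.53 and -0.30. ALPL averaged -0.63 ± 1.38 in SS and -0.45 ± 1.73 in LS tumors and differed by -0.18 (interval -1.27 to 0.90, limma adjusted p = 0.939). The groups overlapped almost entirely in all 4 genes, and the intervals allow a difference of over 1 on the log2 scale, a doubling, in each.

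With the dye as a block limma called 0 of 10 probes, against 0.424% of all probes, and 0 of 10 had an unadjusted p under 0.05 (14.1% of all probes). Within the orientations the genes went separate ways. COL1A2 differed by -0.35 on Cy5 and by -0.47 on Cy3 arrays, and SPARC by -0.27 and -1.04, each with the same sign in both. SPP1 differed by 1.5 on Cy5 arrays (interval -0.30 to 3.30) and by -0.47 on Cy3 arrays (interval -2.23 to 1.28), and ALPL by 0.51 and -0.88. For SPP1, 4 of 8 SS tumors and 1 of 8 LS tumors had a log2 ratio above 0 on Cy5 arrays, against 3 of 8 SS and 5 of 8 LS tumors on Cy3 arrays.

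Limma called 0 of 10 probes on the Cy5 arrays (5.91% of all probes) and 0 of 10 on the Cy3 arrays (9.6% of all probes). At an unadjusted p under 0.05 it was 0 of 10 on both, against 14.5% and 22.8% of all probes. The interaction of survival group and dye was 1.98 for SPP1 (SE 1.23, limma adjusted p = 0.389) and 1.39 for ALPL (SE 1.04, limma adjusted p = 0.491). It was called for 0 of 10 member probes, whose smallest unadjusted p was 0.119, and for 10.8% of all probes.

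**Figure D4:**
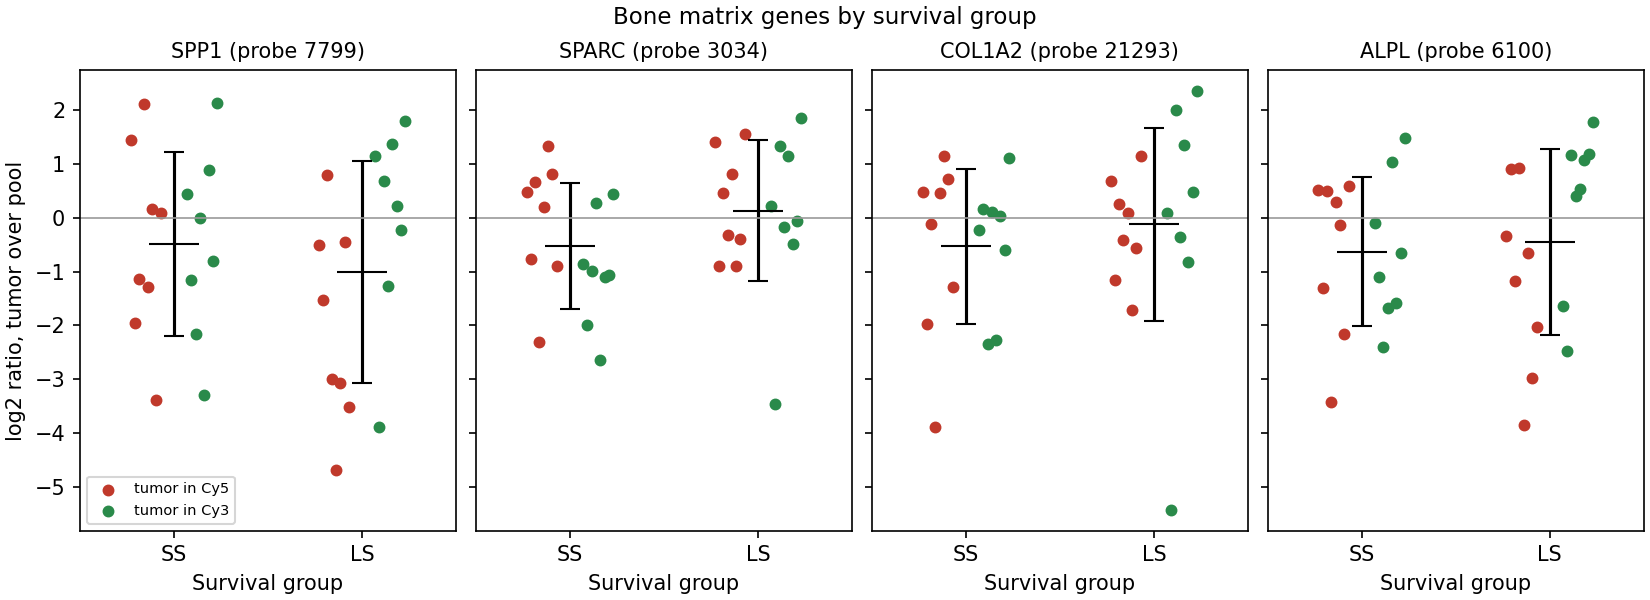
Log2 ratio of tumor over pool in 16 SS and 16 LS tumors for SPP1, SPARC, COL1A2 and ALPL, with each tumor as a point colored by the dye it carried and the mean ± SD in black. The groups overlap in each panel, with SPARC averaging -0.53 in SS and 0.13 in LS.

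The lists around these genes held 0 called probes in SS against LS and in each of the other 7 comparisons. Of all probes 0% were called in these fits, apart from 0.00451% in tumors without minus with an OB component. The count is therefore no result about the lists. Of 25 bone matrix probes 24 were below 0 in SS minus LS, with a median of -0.41 against -0.0006 over all probes. Those with the smallest p were VTN (vitronectin, -0.25, SE 0.08, limma adjusted p = 0.535), PHEX, an endopeptidase of mineralizing cells and the one probe above 0 (0.31), COL3A1 (-0.75) and COL5A1 (-0.41). All 4 fibroblast marker probes were below 0 (median -0.80), COL3A1 and DCN being in both lists. These probes move together and several belong to 1 gene, so their number is no measure of independent support.

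All 8 osteoclast marker probes were above 0 in SS minus LS (median 0.30), and so were 6 of 7 leukocyte probes (median 0.20), CD68 among them (0.45, limma adjusted p = 0.754). The mean of the osteoclast list, centered within the orientation, ranged from -0.93 to 1.22 in SS and from -1.20 to 0.51 in LS tumors. The osteoblast regulators had 7 of 13 probes above 0 (median 0.01), and 1 of the 13 had a limma unadjusted p under 0.05. Highest among those with the smallest p was 1 probe of TGFBR2, a TGF-beta receptor (1.44, SE 0.62, limma adjusted p = 0.624). The TGFBR2 probes disagreed with each other, with r of -0.10 (probe 8301), 0.51 (probe 6409) and 0.49 (probe 2839) with SPARC. Of 11 collagen processing probes 5 were above 0 (median -0.005), of 27 muscle probes 2 (median -0.25), of 5 cartilage probes 0 (median -0.32) and of 10 endothelium probes 4 (median -0.16).

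The next comparisons asked whether the genes followed histological type, with the dye as a block. The 3 tumors without an OB component were numbers 10, 20 and 28. COL1A2 was at 0.16, -0.41 and 2.35 in these, SPARC at -2.0, -0.33 and 1.86, ALPL at -1.10, 0.93 and 1.78, and SPP1 at -1.16, -3.01 and 1.80. The 29 tumors with an OB component covered -5.43 to 2.01 for COL1A2 and -3.86 to 1.49 for ALPL. Tumor 28 lay above all of them at these probes of COL1A2, SPARC and ALPL, and the 2 CB tumors lay inside their range. At the other COL1A2 and SPARC probes tumor 28 lay inside it too, as at COL1A2 probe 14746 with 0.69, against 1.78 in tumor 7.

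The SDs of the 4 genes lay between 1.46 and 2.43 among these 3 tumors, against 1.23 to 1.87 among the 29. COL1A2 differed by 1.13 (SE 0.96, interval -0.82 to 3.08) and ALPL by 1.07 (SE 0.89, interval -0.74 to 2.88), tumors without minus with an OB component, and SPARC and SPP1 by 0.15 and -0.22. Limma called 0 of 10 member probes (0.00451% of all probes), and 0 of 10 had an unadjusted p under 0.05 (2.42% of all probes). In the 8 tumors that were OB alone, SPP1 averaged -1.62 ± 2.08, against -0.46 ± 1.76 in the other 24, a blocked difference of -1.02 (interval -2.49 to 0.45, limma adjusted p = 0.827). At the single probes used, the other genes differed by -0.22 to 0.08. Before the block COL1A2 probe 21293 averaged -0.42 in OB tumors and -0.30 in the others. Its other probes went the other way, with -0.18 and -0.65 at probe 10265 and -0.24 and -0.47 at probe 14746. Limma called 0 of 10 probes (0% of all probes), and 0 of 10 had an unadjusted p under 0.05 (6.68% of all probes).

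The fibroblastic component gave the one member difference with an unadjusted p under 0.05. SPP1 ranged from -3.07 over a median of 0.11 to 2.14 in the 16 tumors with an FB component, and from -4.69 over a median of -1.14 to 1.37 in the 16 without. It averaged -0.01 ± 1.56 with and -1.49 ± 1.93 without the component. The difference was 1.48 (SE 0.58, interval 0.30 to 2.66, limma unadjusted p = 0.0158). It did not pass adjustment over all probes (limma adjusted p = 0.591), with which 0% of all probes were called. It was 1.87 on Cy5 and 1.09 on Cy3 arrays, and 13 of 16 tumors with the component lay above the mean of those without.

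At an unadjusted p of 0.05, 1 of 10 member probes stands against 6.89% of all probes. COL1A2 differed by 0.36, SPARC by 0.21 and ALPL by 0.47, and for COL1A2 and SPARC the sign differed between the orientations (-0.60 and 1.31, and -0.65 and 1.06, on Cy5 and Cy3 arrays). The COL1A2 probes also differed in direction. Probe 10265 averaged -0.67 with and -0.40 without the component, and probe 14746 averaged -0.33 and -0.50. All 7 leukocyte and all 8 osteoclast marker probes were above 0 in this comparison too (medians 0.30 and 0.22, against -0.001 over all probes), and CD68 differed by 0.47 (limma adjusted p = 0.79). The mean of the leukocyte list ranged from -0.77 to 1.56 with and from -0.63 to 0.37 without an FB component. Its part in the SPP1 difference was not tested.

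Of the collagen processing genes P4HA2, a subunit of prolyl hydroxylase, had the smallest p with the FB component (0.71, SE 0.24, limma adjusted p = 0.535), followed by CRTAP, of the collagen prolyl 3-hydroxylation complex (0.34, limma adjusted p = 0.591).

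In 8 tumors with a CB component, SPP1 and SPARC differed by -0.27 and -0.17 from the 24 without, and COL1A2 and ALPL by 0.44 and 0.18, with 0 of 10 probes called by limma (0% of all probes) and 0 of 10 at an unadjusted p under 0.05 (1.91% of all probes). COL1A2 averaged -0.02 ± 0.69 in tumors with and -0.43 ± 1.82 in tumors without the component (SD, n = 8 and 24). The 4 tumors with a TL component, numbers 6, 18, 21 and 22, had COL1A2 at 1.16, -1.15, 0.10 and -5.43, and SPARC at 1.33, -0.90, 0.22 and -3.47. COL1A2 differed by -1.15 (SE 0.83, interval -2.84 to 0.55, limma adjusted p = 0.999) and by 0.30 without tumor 22. Limma again called 0 of 10 probes (0% of all probes), and 0 of 10 had an unadjusted p under 0.05 (4.82% of all probes).

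By site, 6 tumors of the rib, mandible or soft tissue were set against 26 of the limbs. SPP1 was at 1.44 and -3.88 in the rib tumors (numbers 1 and 22), at 2.14, 1.14 and -0.45 in the mandible (16, 21 and 31) and at 0.79 in the extraskeletal tumor (19). In the limb tumors it ranged from -4.69 over a median of -0.97 to 2.12. The difference was 1.17 (SE 0.79, interval -0.44 to 2.77, limma adjusted p = 0.941), and 2.12 without tumor 22. It was 2.26 on Cy5 and 0.07 on Cy3 arrays. In the same comparison 7 of 7 leukocyte marker probes were above 0 (median 0.27, 2 of them at an unadjusted p under 0.05), as were 7 of 8 osteoclast (median 0.29) and 10 of 10 endothelium marker probes (median 0.13), against a median of -0.003 over all probes. The mean of the leukocyte list ranged from -0.63 to 0.61 in the 6 tumors and from -0.77 to 1.56 in the limb tumors, and that of the osteoclast list from -1.20 to 1.22 in the 6 tumors and from -0.93 to 1.15 in the limb tumors. Their part in the SPP1 difference was not tested. ALPL differed by -0.62, COL1A2 by -0.43 and SPARC by -0.22. The SPARC probes did not all go one way. Probe 16042 averaged -0.17 in the 6 tumors and -0.24 in the limb tumors, and probe 13015 -0.31 and -0.30. The remaining SPARC probes were lower in the 6 tumors. Limma called 0 of 10 probes (0% of all probes), and 0 of 10 had an unadjusted p under 0.05 (5.35% of all probes).

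The extraskeletal tumor, which arose outside bone, had all 4 genes on the array within the range of the skeletal tumors. Its SPP1 was 0.79, COL1A2 0.25, SPARC 0.45 and ALPL -1.18.

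Among limb tumors, the 9 of the hindlimb had COL1A2 at 0.30 ± 1.24, against -0.54 ± 1.47 in the 17 of the forelimb and scapula (SD), a blocked difference of 0.76 (interval -0.42 to 1.94, limma adjusted p = 1). ALPL differed by -0.64, SPP1 by -0.38 and SPARC by 0.24. On Cy5 arrays, with 3 hindlimb tumors, SPARC differed by 1.57 and COL1A2 by 1.74, and on Cy3 arrays by -0.70 and 0.07. Limma called 0 of 10 probes (0% of all probes), and 0 of 10 had an unadjusted p under 0.05 (2.4% of all probes).

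**Figure D5:**
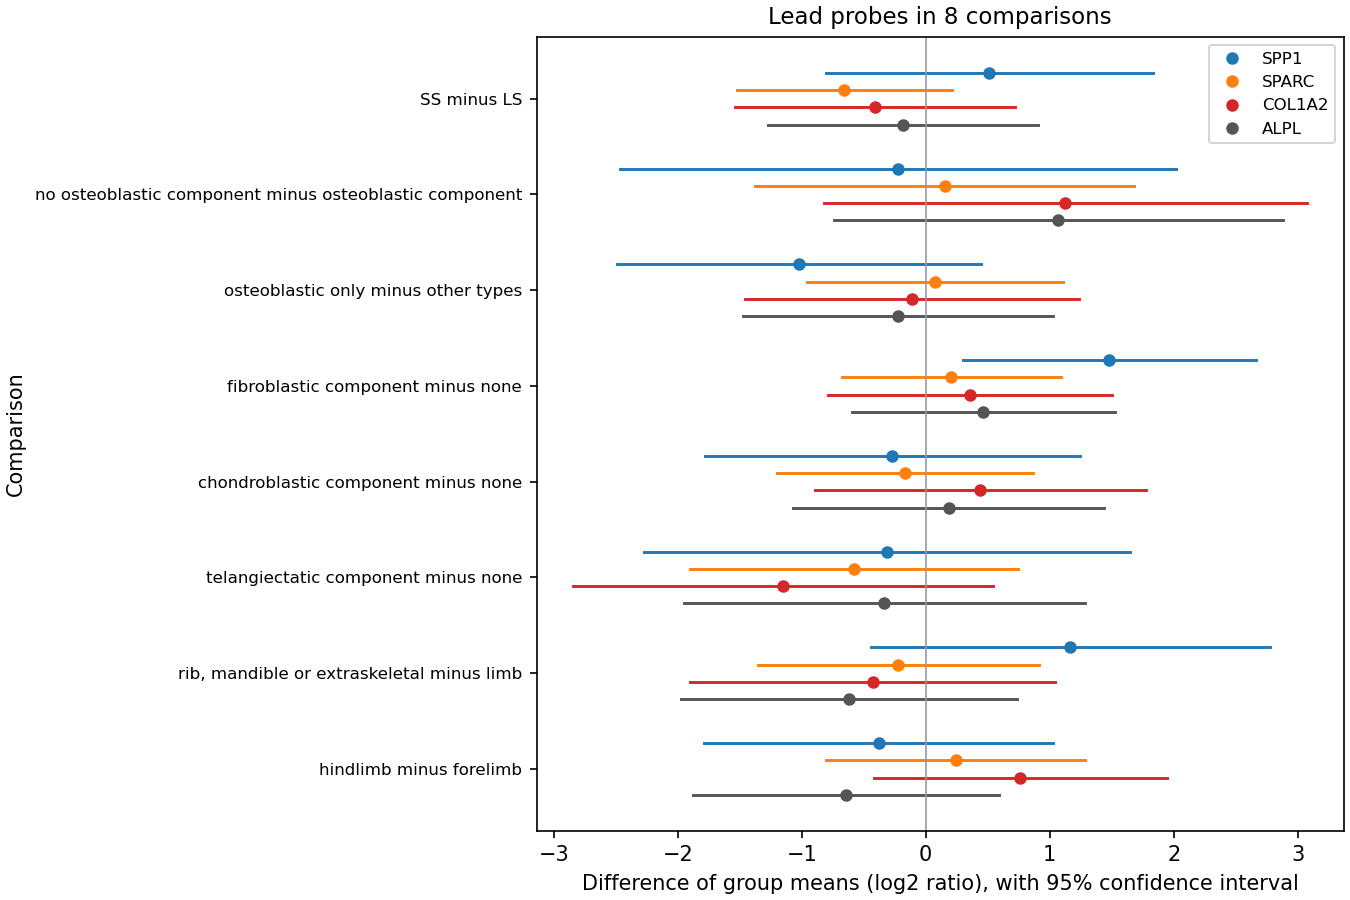
Difference of group means (log2 ratio) with its 95% confidence interval for the most variable probe of SPP1, SPARC, COL1A2 and ALPL in 8 comparisons, without a block for SS minus LS and with the dye as a block for the rest. The interval for SPP1 with a fibroblastic component, 0.30 to 2.66, is the one that leaves out 0 before adjustment.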

How the data were processed

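What the authors deposited are log2 ratios of tumor over pool, 1 per probe and array, made comparable between print tips by Lowess, without defective spots and with the sign of the dye-swapped arrays reversed. The base of the logarithm is not named in the sources used here and was taken from the size of the values. The direction follows the stated reversal. A check added after seeing the data fits it: of 47 variable genes with agreeing probes, 39 had a mean below 0 on Cy5 and 46 on Cy3 arrays, as tumors set against their own pool give in either orientation. The array medians lay between -0.03 and 0.02, and 5 values were missing.

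Survival groups and dyes come from the labels. Gene symbols come from the platform annotation, where 7694 probes had 1 symbol and 14482 had none, so an unnamed probe may still belong to a gene sought. Of the named probes 7340 matched a current gene identifier.

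Limma 3.58.1 in R 4.3.3 fitted all 22176 probes (lmFit and eBayes, two-sided, Benjamini-Hochberg, threshold 0.10), without a covariate for survival, as in the two-class test of the study's methods, and with the dye as a block for type and site. Correlations used NumPy 2.4.6 under Python 3.11.15. The fits were tested on simulated data. The genes, lists and comparisons were chosen with earlier results of these data known. Named genes are all probes of the 8 symbols, the 5 named genes most like each, and up to 4 genes with the smallest p of each list. No probe carried the symbol of a blood or fat marker sought.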

Additional observations from a re-analysis of the deposited data

Results flagged for a closer look

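Dixon's test of the highest or lowest tumor was run on each of the 10 probes in 9 groups of 4 to 10 tumors, 90 in all, and it marked 17. Chance marks about 1 in 20 groups, and the probes of a gene are not independent. Of the 17, 15 concern 1 tumor, number 22, an LS tumor of the rib typed OB/TL and labeled with Cy3.

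Among the 6 tumors of the rib, mandible or soft tissue, tumor 22 lay far below the rest at all 8 probes. COL1A2 was at -4.31, -5.70 and -5.43 (probes 10265, 14746 and 21293), where the next tumor had -0.41, -0.53 and -0.57. SPARC was at -3.47, -2.93, -2.93, -3.18 and -2.59 (probes 3034, 4643, 4774, 13015 and 16042), where the next lowest had between -0.39 and -0.01.

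Among the 8 LS tumors labeled with Cy3 the same tumor stood apart at the 3 COL1A2 probes and at SPARC probes 3034, 4643, 4774 and 13015, with the same ratios. Its dye strength of 1.18 equals the mean of that group, 1.18.

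Tumor 10, an SS tumor of the distal tibia typed CB alone, stood apart from the other 7 tumors with a chondroblastic component at SPARC probes 4643 and 4774, with -1.89 and -1.90, where the next had -0.46 and -0.42.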

How the results depend on the processing

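The count of member probes called stayed at 0 under every alternative run for the 8 comparisons and for the interaction. Apart from the dye block and the single orientations for survival, the share of all probes called is not given for these alternatives. Without centering within the orientation the median percentile of the standard deviation was 94.3. Of 280 alternative values of single probes 255 kept their direction and 25 reversed, and none reached the threshold.

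With the sign of the Cy3 arrays turned, SS minus LS was 0.38, 0.26, 0.20, 0.18 and 0.12 at SPARC probes 3034, 4643, 4774, 13015 and 16042, 0.083, 0.091 and 0.060 at COL1A2 probes 10265, 14746 and 21293, and 0.69 for ALPL. ALPL was 0.51 on Cy5 arrays alone. SPP1 was -0.47 on Cy3 arrays alone and -0.15 with array weights. The causes were not tested.

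COL1A2 in OB tumors against the other types was 0.030 with the survival group added and 0.21 without the array of lowest dye strength. SPP1 with a TL component was 0.049 after quantile normalization.

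Leaving out each of the 3 tumors without an OB component gave -1.35 to 0.66 for SPP1, -0.95 to 0.98 for SPARC, 0.31 to 1.75 for COL1A2 and 0.56 to 1.99 for ALPL. Leaving out each of the 4 TL tumors gave -0.90 to 0.85, -1.19 to 0.29, -2.03 to 0.30 and -1.07 to 0.36 for the same genes, and each of the 6 tumors of other sites 0.80 to 2.12, -0.45 to 0.36, -0.79 to 0.57 and -1.07 to -0.25. Removing tumor 22 reversed SPARC and COL1A2 in both of the last comparisons, and SPP1 and ALPL in that by TL component, where removing tumor 21 also reversed ALPL (0.07). The replicate numbers are tumor numbers and differ between the groups. No paired analysis was possible because the groups share no replicate number. Leaving out the array of lowest dye strength and each tumor of the other sites was chosen after seeing the data. Signal over background was not analysed here.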
